A study of Homo sapiens with 16 samples.

Results

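The thrombospondins are a family of 5 secreted glycoproteins, and all 5 genes (THBS1, THBS2, THBS3, THBS4 and COMP) had 1 probe set each among the 18495 probe sets of the deposited table. The members were found by gene symbol, and the family was chosen by measured values of THBS2, whose intensity was higher at day 1 than at day 0 and lower than at day 0 at days 3 and 5. The values of THBS2 are therefore given as a description with no test. The intensities of the other 4 genes had no part in that choice, although they come from the same samples, and they were tested.

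The RNA was from H9, an established line of human embryonic stem cells, at passage 40-50. Undifferentiated day 0 cells grew on mouse embryonic fibroblast feeders or on Matrigel, in medium conditioned by such fibroblasts with basic FGF at 8 ng/ml. The other groups were H9 cells after 1, 3 and 5 days with activin A, a ligand that signals through the same receptors as nodal, at 100 ng/ml in RPMI-1640 with fetal bovine serum raised stepwise through 0, 0.2 and 2%. Days 0 and 5 have 4 biological replicates each and days 1 and 3 have 3 each, and replicate 4 of days 0 and 5 was hybridised to a pair of arrays that were averaged. All groups come from this 1 line. Activin, basal medium, feeder-conditioned medium, basic FGF, serum and time changed together between day 0 and the later days, so their effects cannot be told apart.

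Thrombospondins are matricellular proteins: they sit in the extracellular matrix and act on cell surface receptors, growth factors and proteases more than as scaffold. THBS1 and THBS2 assemble as trimers and carry type 1 repeats, through which they bind CD36 and restrain blood vessel growth, and THBS1 also activates latent TGF-beta. THBS3, THBS4 and COMP assemble as pentamers, lack type 1 repeats and are best known from cartilage, tendon, muscle and the nervous system. Activin receptors act through SMAD2 and SMAD3, transcription factors whose complexes bind short DNA elements with the letters CAGAC or its reverse complement GTCTG.

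The values are log2 of the deposited intensity plus 1, called log2 intensity here, so a difference of 1 is a doubling. An intensity ranks samples for 1 probe set, and levels of different genes are not set against each other. In these bulk samples, fewer cells that express a gene and less RNA per cell cannot be told apart. The labels do not say whether the replicates were separate cultures, so p-values measure the spread between these samples.

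The samples followed the stages that the labels name, with 1 exception. Of 12 streak and endoderm markers, 10 rose at day 5 (GSC, a homeobox factor of the streak organiser, by 6.12 ± 1.01, SE, limma adjusted p = 0.00353), and of 8 measured pluripotency markers, 4 fell. PRDM14, a transcriptional regulator of the pluripotent state, fell by 2.58 ± 0.40 (adjusted p = 0.00251). Limma called 5.46% of all probe sets in that comparison. TBXT, of the streak and endoderm list, went the other way at day 5 (-0.58 ± 0.54, adjusted p = 0.665). At days 1 and 3 against day 0, 0 genes of either list passed, where 0.00541% and 0.027% of all probe sets were called. The mean log2 intensity of the streak and endoderm markers ran from 6.86 to 7.84 at day 0, 9.03 to 10.5 at day 1 and 10.7 to 11.6 at day 5. Day 3 replicates 1 and 3 had 11.1 and 11.4, but the library labelled day 3 replicate 2 had 7.14, within the range of day 0. The mean of its pluripotency markers was 11.58, below all of day 0 (11.72 to 12.05) and within the range of day 1 (11.22 to 11.78). That library's median correlation with the rest of its group over all probe sets was 0.83, and that of day 5 replicate 2 was 0.858, against 0.901 to 0.962 elsewhere. Results at day 3 are given with and without it.

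THBS2, a trimeric thrombospondin that also clears matrix metalloproteases from the pericellular space through LRP1, is described first because the family was chosen by it. Its log2 intensity was 8.07, 7.93, 7.97 and 7.89 in the 4 samples of day 0. It was 8.91, 8.68 and 9.17 in the 3 samples of day 1. At day 3 it was 6.50, 6.70 and 6.41, and at day 5 it was 6.17, 6.43, 6.21 and 6.46. All samples of day 1 lay above all of day 0, and all samples of days 3 and 5 lay below all of day 0, while days 3 and 5 overlapped. The library labelled day 3 replicate 2, at 6.70, was the highest of its day and lay under all samples of day 0.

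The group mean of THBS2 was 7.97 ± 0.08 on day 0 (SD, n = 4) and 8.92 ± 0.25 on day 1 (n = 3), then 6.54 ± 0.15 on day 3 (n = 3) and 6.32 ± 0.15 on day 5 (n = 4). Day 1 was 0.96 above day 0 on the log2 scale (1.94-fold), day 3 was 1.43 below it (2.70-fold lower) and day 5 was 1.65 below it (3.14-fold lower). The widest step was between day 1 and day 3, where day 3 was 5.23-fold lower. Without the library labelled day 3 replicate 2 and its same-numbered libraries of days 1 and 5, the differences from day 0 were 1.08, -1.51 and -1.69. Differences between days made up 98.4% of the variance of THBS2 over the 14 samples, which the choice of THBS2 by its course over the days favours. The paired arrays of day 5 replicate 4 read 6.28 and 6.63 for THBS2, a gap of 0.35 within 1 sample that is wider than the range of the 4 day 5 samples (0.29). The plot of the members by sample shows the same values.

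**Figure D1:**
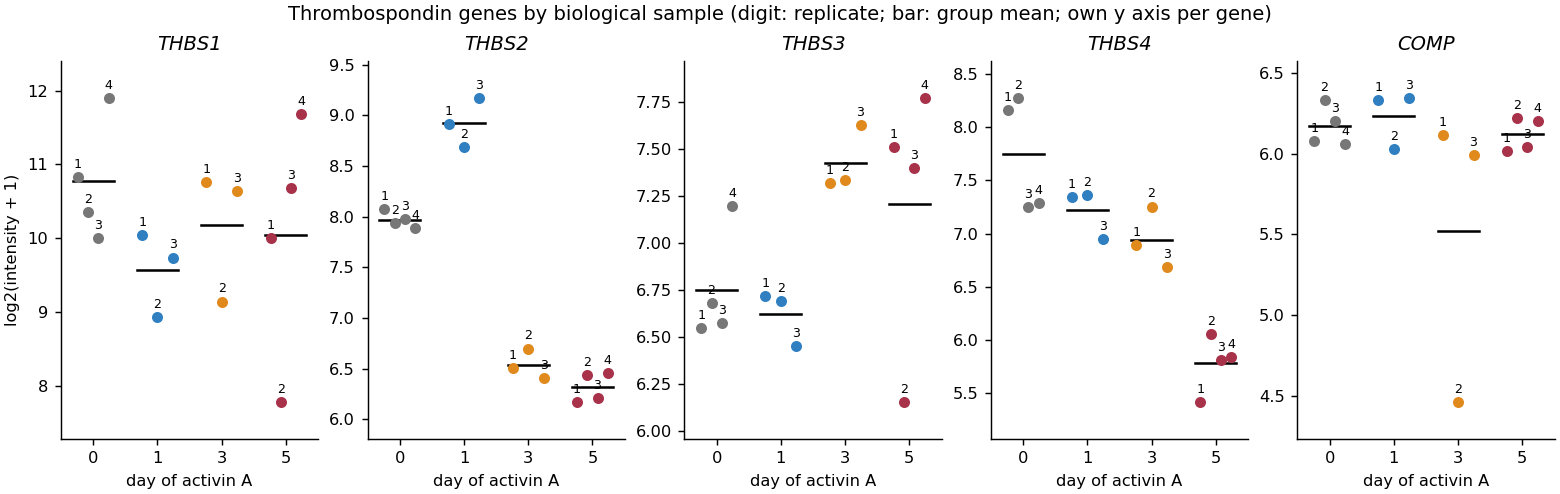
Log2(intensity + 1) of the 5 thrombospondin genes on the y axis (own range per gene) in each of the 14 biological samples by day of activin A, where a dot is a sample, the digit its replicate number and the bar the group mean. THBS2 separates days 0, 1 and the pair of days 3 and 5, THBS4 is lowest at day 5, and COMP has a single low sample at 4.46.

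The DNA before the transcription start of THBS2 is printed because its probe set carries the pattern by which the family was chosen and because activin acts through SMAD proteins. RefSeq promoter windows on GRCh38.p14 matched all 5 genes with 7 windows. A window holds 250 bases before and 50 after an annotated start, of which the first 280 bases are printed 5′ to 3′ on the gene's strand. Capitals mark matches to any of 8 motifs searched on both strands: the TATA box (TATAAA), the CCAAT box (CCAAT), the GC box (GGGCGG), the SMAD element (CAGAC), the T-box core (TCACACC), the FOXH1 element (AATNCACA), the AP-1 element (TGANTCA) and the GATA element (AGATAA). In the windows printed here no base belongs to more than 1 match. The THBS2 window is chr6:169253817-169254096, minus strand.
THBS2: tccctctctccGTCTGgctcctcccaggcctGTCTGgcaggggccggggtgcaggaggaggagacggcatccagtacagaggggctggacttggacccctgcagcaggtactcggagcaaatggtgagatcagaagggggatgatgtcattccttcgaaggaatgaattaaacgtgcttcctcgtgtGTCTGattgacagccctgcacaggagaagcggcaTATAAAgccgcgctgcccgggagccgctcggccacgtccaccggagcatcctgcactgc
It holds GTCTG, the reverse complement of the SMAD element, at -239, -219 and -63 from the start, and TATAAA at -29. Of 35116 RefSeq windows of this length, 45.3% hold at least 1 SMAD element in either orientation and 11.5% hold TATAAA. The share holding several SMAD elements was not counted. Of the windows not printed, that of COMP holds a SMAD element at -201 and those of THBS3 hold none. A match describes these letters only, and a link to the course of THBS2 was not tested.

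THBS1 is the other trimeric member and the one that activates latent TGF-beta. Its window, chr15:39580829-39581108 on the plus strand, is shown beside that of THBS2.
THBS1: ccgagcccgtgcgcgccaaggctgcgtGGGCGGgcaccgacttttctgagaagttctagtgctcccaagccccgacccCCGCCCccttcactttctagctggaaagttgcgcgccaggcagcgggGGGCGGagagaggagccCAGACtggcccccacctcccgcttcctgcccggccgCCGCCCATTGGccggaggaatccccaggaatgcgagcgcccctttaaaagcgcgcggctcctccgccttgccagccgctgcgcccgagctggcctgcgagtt
It holds 1 SMAD element at -108, no TATAAA, GC boxes at -223, -172, -125 and -72, and a CCAAT box, read on the opposite strand, at -66. Over all windows 45.0% hold a GC box and 34.6% a CCAAT box.

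THBS1 varied more between samples of a day than between days. Its log2 intensity was 10.830, 10.361, 10.0035 and 11.904 at day 0, then 10.05, 8.93 and 9.74 at day 1. It was 10.76, 9.15 and 10.64 at day 3 and 10.01, 7.78, 10.68 and 11.68 at day 5. All groups overlapped. Replicate 2 was the lowest sample of days 1, 3 and 5, and replicate 4 was the highest of days 0 and 5. Day 1 was 1.20 ± 0.77 below day 0 (SE, 95% interval -2.86 to 0.46), day 3 was 0.59 ± 0.77 below it and day 5 was 0.73 ± 0.71 below it, with limma adjusted p-values of 1, 0.905 and 0.681. The intervals at days 3 and 5 were -2.25 to 1.07 and -2.27 to 0.80, so all 3 hold changes in either direction. Only 17.1% of the variance of THBS1 lay between days, against a median of 22.6% over all probe sets. The lowest sample, day 5 replicate 2, decided the sign of the day 5 difference, which was 0.02 without it. At day 3 the difference of THBS1 from day 0 was -0.07 without the library labelled day 3 replicate 2.

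The paired arrays of replicate 4 gave nearly the same THBS1 value (11.95 and 11.86 at day 0, 11.72 and 11.65 at day 5). The plot by replicate number shows how the members differ in this respect, with THBS2 close to its day means in every sample and THBS1 spread over almost 4 log2 units.

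**Figure D2:**
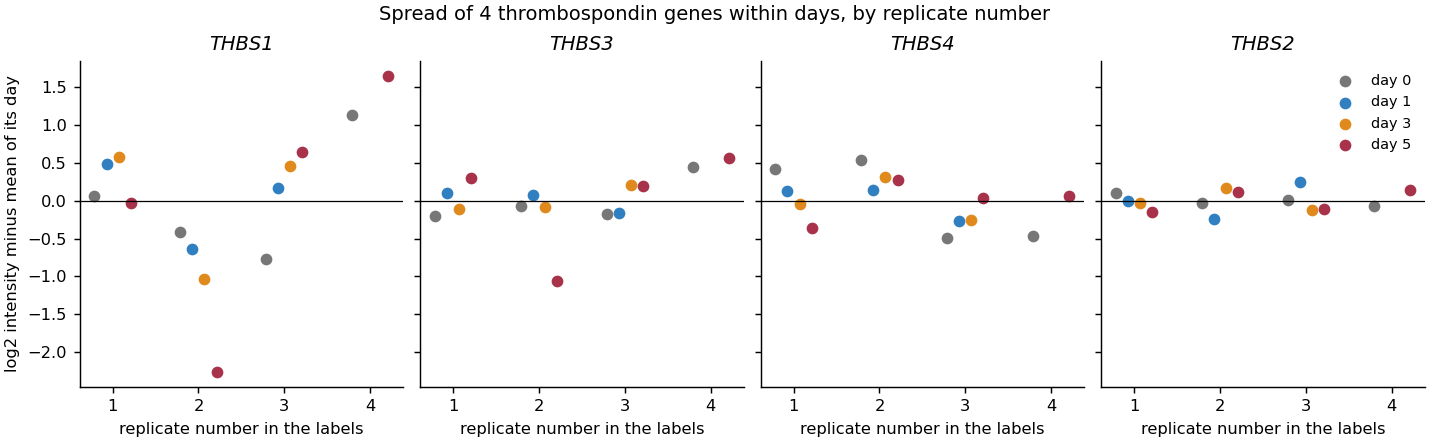
Log2 intensity of THBS1, THBS3, THBS4 and THBS2 minus the mean of the sample's own day (y axis) against the replicate number in the labels (x axis), where each dot is a biological sample and colours are days. THBS1 deviates from -2.26 (day 5 replicate 2) to 1.64 (day 5 replicate 4), while THBS2 stays between -0.24 and 0.25.

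THBS4, a pentameric member found in tendon, muscle and injured nervous tissue, was the only one of the 4 tested genes to pass the test. Its log2 intensity was 8.17, 8.28, 7.25 and 7.28 at day 0 and 7.34, 7.36 and 6.95 at day 1. It was 6.89, 7.25 and 6.68 at day 3, then 5.41, 6.05, 5.81 and 5.84 at day 5. Every sample of day 5 was below every sample of days 0, 1 and 3. Day 0 itself fell into a higher pair (replicates 1 and 2) and a lower pair (replicates 3 and 4), the lower of which was level with day 1.

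THBS4 fell by 1.97 ± 0.28 on the log2 scale at day 5 relative to day 0 (SE, 95% interval -2.57 to -1.36, limma adjusted p = 0.00138), a 3.91-fold lower intensity. The mean was 5.78 ± 0.27 at day 5 and 7.75 ± 0.55 at day 0 (SD, n = 4 each). The day 5 intensities of THBS4, from 41.6 to 65.5, are dim and no detection call was used, so the size of the fall is uncertain. The paired arrays of day 5 replicate 4 read 5.65 and 6.03 for THBS4, a gap of 0.38. The call held under all 22 alternative settings and left-out samples tried, with adjusted p-values between 6.17e-05 and 0.00727. The steps before day 5 did not pass: day 1 minus day 0 was -0.53 ± 0.30 (adjusted p = 1) and day 3 minus day 0 was -0.80 ± 0.30 (adjusted p = 0.422). Day 5 minus day 3 was -1.16 ± 0.30 with groups that did not overlap, and its limma adjusted p of 0.288 missed the threshold. At day 3 the difference from day 0 was -0.96 without replicate 2 of days 1, 3 and 5.

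THBS4 has 2 annotated windows on chromosome 5, both on the plus strand, printed because the fall was measured on 1 gene-level probe set that does not tell the 2 starts apart. The first is chr5:79991082-79991361 and the second is chr5:80035773-80036052.
THBS4 first start: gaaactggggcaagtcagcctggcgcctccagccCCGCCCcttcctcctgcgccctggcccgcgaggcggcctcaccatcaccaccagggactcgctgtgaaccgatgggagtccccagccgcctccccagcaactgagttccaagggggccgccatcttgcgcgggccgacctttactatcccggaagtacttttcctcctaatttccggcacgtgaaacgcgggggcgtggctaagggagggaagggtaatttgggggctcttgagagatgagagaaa
THBS4 second start: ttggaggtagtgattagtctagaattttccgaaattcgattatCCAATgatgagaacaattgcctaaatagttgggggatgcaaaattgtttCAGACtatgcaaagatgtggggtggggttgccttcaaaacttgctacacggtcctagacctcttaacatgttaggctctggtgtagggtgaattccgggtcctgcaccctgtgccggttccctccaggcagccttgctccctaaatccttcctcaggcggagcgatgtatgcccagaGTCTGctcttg
The first holds a GC box at -216 and no SMAD element. The second holds a CCAAT box at -207 and SMAD elements at -158 and 20. Their GC content over the whole window was 62.7% and 48.7%, against a median of 58.7% over all windows.

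THBS3, a pentameric member expressed in growing bone and cartilage, was higher at day 3 than before without passing the test. Its log2 intensity was 6.55, 6.68, 6.58 and 7.20 at day 0 and 6.72, 6.69 and 6.45 at day 1. It was 7.32, 7.34 and 7.63 at day 3, then 7.51, 6.15, 7.40 and 7.77 at day 5. Day 3 lay above all samples of days 0 and 1, the library labelled day 3 replicate 2 included. At day 5, replicates 1, 3 and 4 lay above all of day 0, and replicate 2, at 6.15, was the lowest THBS3 value of the study.

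Day 3 minus day 0 was 0.68 ± 0.34 for THBS3 (SE, limma adjusted p = 0.641) and day 3 minus day 1 was 0.81 ± 0.36 (adjusted p = 0.553). The difference of day 3 from day 0 was 0.72 without the library labelled day 3 replicate 2. Day 5 minus day 0 was 0.46 ± 0.32 (adjusted p = 0.536) over all samples. With replicate 2 of days 1, 3 and 5 left out together, day 5 minus day 0 was 0.81 with an adjusted p of 0.0321, in a fit that called 11.4% of all probe sets.

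COMP, the cartilage oligomeric matrix protein, lay between 5.99 and 6.35 in all samples but 1. Its log2 intensity was 6.08, 6.33, 6.20 and 6.06 at day 0 and 6.33, 6.03 and 6.35 at day 1. It was 6.12, 4.46 and 5.99 at day 3, then 6.02, 6.22, 6.04 and 6.20 at day 5. The value of 4.46 is that of the library labelled day 3 replicate 2, and all groups overlapped. The paired arrays of day 5 replicate 4 read 6.47 and 5.935 for COMP before averaging. That gap of 0.54 within 1 sample is wider than the range of the day 5 samples (0.20). Day 3 minus day 0 was -0.65 ± 0.33 (SE, limma adjusted p = 0.655) over all samples and -0.12 without that library. Day 5 minus day 0 was -0.05 with a 95% interval of -0.72 to 0.62, which leaves room for a change in either direction.

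**Figure D3:**
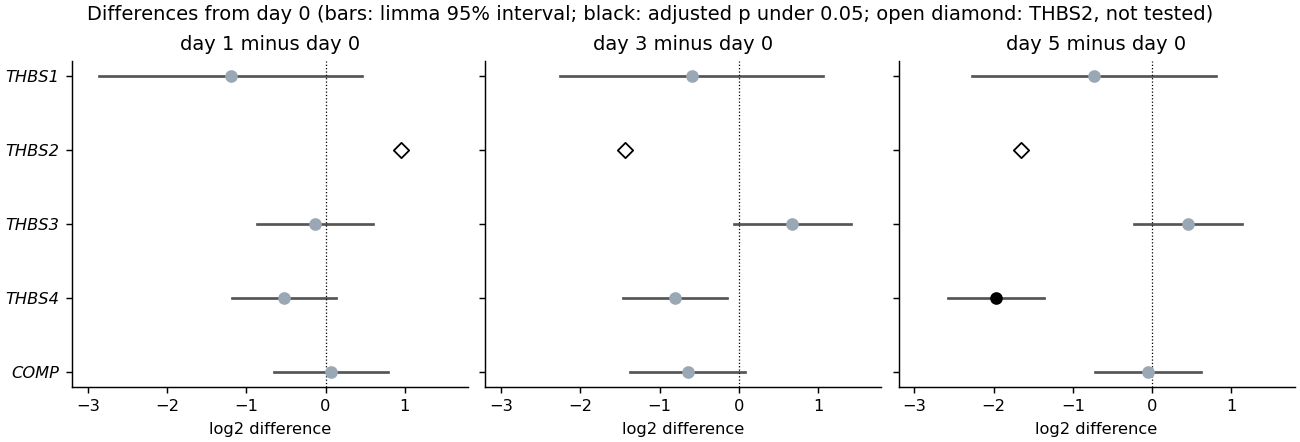
Log2 differences of each thrombospondin gene from day 0 (x axis) at days 1, 3 and 5, where circles with bars are limma estimates with 95% intervals and the open diamond is THBS2, which was not tested. THBS4 at day 5 (-1.97) is the only tested value past the threshold, and the intervals of THBS1 are the widest.

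The calls of the 4 tested members are set beside those of all probe sets. At day 1 minus day 0, 0 of the 4 passed, where limma called 0.00541% of all probe sets, and at day 3 minus day 0, 0 passed, where it called 0.027%. At day 5 minus day 0, 1 of 4 passed against 5.46% of all probe sets. Of the later steps, day 3 minus day 1 called 0 members and 0.0324% of probe sets (6, or 1 with the replicate number as a block), and day 5 minus day 3 called 0 members and 0.0973%. No further member value passed with the replicate block. Without the library labelled day 3 replicate 2 the members' counts at day 3 and day 5 minus day 0 were again 0 and 1, where 3.19% and 8.73% of all probe sets were called. Without adjustment, 3 of the 19 uncalled limma values lay under the threshold: THBS4 at day 3 minus day 0 and at day 5 minus day 3, and THBS3 at day 3 minus day 1. Over all probe sets that share was 6.03% at day 1 minus day 0, 8.56% at day 3 minus day 0, 17.2% at day 5 minus day 0, 8.62% at day 3 minus day 1 and 5.99% at day 5 minus day 3.

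Groups without overlap were common on these arrays. Of all probe sets, 11.5% had groups apart at day 1 minus day 0, 9.82% at day 3 minus day 0, 14.6% at day 5 minus day 0, 12.6% at day 3 minus day 1 and 4.98% at day 5 minus day 3. Among the 4 tested genes the groups were apart for THBS3 at day 3 minus day 0 and at day 3 minus day 1, and for THBS4 at day 5 minus day 0 and at day 5 minus day 3. THBS2 had groups apart in the 3 comparisons with day 0 and at day 3 minus day 1, all of which reflect how it was chosen.

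Few other genes ordered the samples as THBS2 did. In all, 19 of the 18495 probe sets, THBS2 included, had every sample of day 1 above and every sample of days 3 and 5 below all samples of day 0. Of these, 17 carried 1 symbol. Besides THBS2 these included BRINP1, a cell cycle inhibitor of neural tissue, POLR1B, a subunit of RNA polymerase I, the ribosome biogenesis factors HEATR1, NOP16 and TEX10, and the kinetochore protein ZWINT. The rest with 1 symbol were MFSD2A, FAM136A, ALAS1, MON1A, PGM2, SLC68A1, GLB1L3, FANCF, PPTC7 and SETD6. THBS2 had the widest day 1 difference of the 19, at 0.96, followed by BRINP1 at 0.89, a rank that the choice of THBS2 by this pattern favours. At days 3 and 5, SLC68A1 (-2.47 and -1.92) and GLB1L3 (-1.46 and -2.32) fell further than THBS2 (-1.43 and -1.65). No other thrombospondin was among them.

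The genes most like THBS2 by Pearson correlation over the 14 samples, among 10614 probe sets with 1 symbol and a mean log2 intensity of at least 6, were BRINP1 (r = 0.95), ZBTB3 (0.94), MGME1 (0.94), COQ8A (0.94), POLR1B (0.93) and SFRP2 (0.92). SFRP2 encodes a secreted WNT inhibitor and MGME1 a mitochondrial exonuclease. The most opposite were SLC36A4 (r = -0.94), CAP2 (-0.93) and B4GALT4 (-0.92), an amino acid transporter, an actin regulator and a galactosyltransferase. These samples share days and arrays, so the correlations describe a common course over 4 days. With replicate 2 of days 1, 3 and 5 left out, 3 of the 6 stayed among the top 6.

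BRINP1 had log2 intensities of 8.77, 8.70, 8.94 and 8.29 at day 0, 9.91, 9.71 and 9.06 at day 1, 7.05, 7.70 and 7.20 at day 3 and 7.16, 7.11, 7.54 and 7.22 at day 5. Its step up at day 1 and its level at days 3 and 5 matched the order of THBS2 group by group. SFRP2 had 12.26, 11.66, 11.54 and 11.61 at day 0 and 12.11, 11.74 and 12.27 at day 1, which overlapped, and was lower in all samples of days 3 (10.64, 10.82 and 10.09) and 5 (9.70, 9.27, 9.72 and 10.06).

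**Figure D4:**
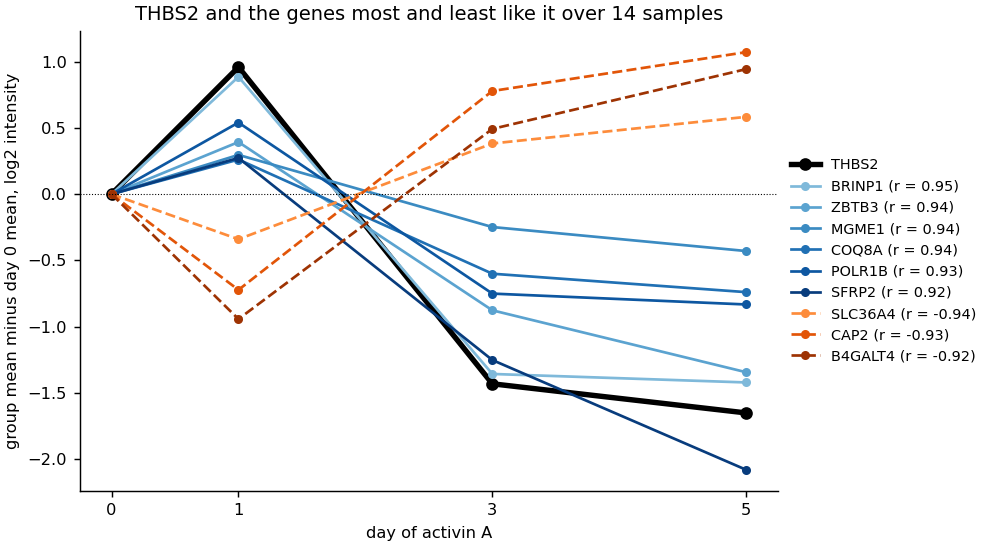
Group mean log2 intensity minus the day 0 mean (y axis) by day of activin A (x axis) for THBS2 (black), the 6 genes most like it (blue, solid) and the 3 most opposite (orange, dashed). BRINP1 follows THBS2 most closely, and SFRP2 is lower than THBS2 at day 5 relative to its own day 0.

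The other members had companions of their own. THBS1 was most like CALD1 (r = 0.98), which encodes the actin-binding protein caldesmon, NRBP2 (0.97) and BCL2L1 (0.97), and these values were 0.93 or more without replicate 2 of days 1, 3 and 5. CALD1 was lowest in replicate 2 of days 1, 3 and 5 (11.27, 11.03 and 10.37) and highest in replicate 4 of days 0 and 5 (13.29 and 12.91), as THBS1 was. THBS3 was most like SNAI2 (r = 0.92), a transcription factor of epithelial-mesenchymal transition, GFRA1 (0.84) and TGFB2 (0.83).

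SNAI2 shared the low value of THBS3 in day 5 replicate 2 (6.40, against 7.59, 7.39 and 7.87 in the other samples of day 5) and the high one in day 0 replicate 4 (7.35, against 6.42, 6.21 and 6.50 in the other samples of day 0). THBS4 was most like PRKCB (r = 0.95), a protein kinase C isoform, INPP5B (0.95) and SNTB1 (0.94). PRKCB had 7.77, 7.76, 6.63 and 6.52 at day 0, the same higher and lower pair of replicates as THBS4, and 4.68, 5.87, 5.22 and 5.42 at day 5. COMP was most like CCDC22 (r = 0.94), NYX (0.92) and GAS2L2 (0.92), but those values were 0.09, 0.30 and 0.30 without the replicate 2 libraries. CCDC22, NYX and GAS2L2 were lowest in the library labelled day 3 replicate 2 (1.75, 4.155 and 5.632), where COMP was lowest too. Between members, r over the 14 samples ran from -0.64 (THBS2 with THBS3) to 0.68 (THBS2 with THBS4).

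Genes linked to thrombospondins were taken from lists that were written from textbook knowledge with earlier results of these data known. In 5 lists of receptors, TGF-beta activation, matrix partners and related proteins, 0 genes passed the limma test at day 1 or day 3 against day 0. Over all probe sets only 0.00541% and 0.027% were called there, so a count of 0 does not set these lists apart. All calls of the lists against day 0 were made at day 5. Without the library labelled day 3 replicate 2, TGFB1, SEMA5A, MATN3 and MMP9 passed at day 3, where 3.19% of all probe sets were called. At day 5 minus day 0, 5.46% of all probe sets were called, 474 higher and 535 lower, which is the rate to set beside each count. The lists' median differences at day 5 lay between -0.41 and 0.10, beside -0.02 over all probe sets.

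Among 13 measured thrombospondin receptors and co-receptors, 2 fell at day 5 and 0 rose, beside 5.46% called over all probe sets. SDC1, the heparan sulfate proteoglycan syndecan-1, had log2 intensities of 7.98, 7.54, 8.03 and 8.13 at day 5, against 9.005, 9.004, 9.050 and 9.024 at day 0. The groups were far apart, and SDC1 fell by 1.10 ± 0.21 (SE, limma adjusted p = 0.00732). ITGA6, the laminin-binding integrin alpha 6, fell by 1.72 ± 0.43 (adjusted p = 0.0358), a call that was lost when any 1 of 7 samples was left out. The median of the list at day 5 was -0.41. The 3 measured differences of ITGA6 were alike (-1.75 at day 1 and -1.70 at day 3, with limma adjusted p-values of 0.293 and 0.232).

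Of 15 measured genes of latent TGF-beta and its activation, the function that THBS1 is known for, 0 passed at day 5. TGFBI, a TGF-beta induced matrix protein, was nearest: it averaged 7.30 ± 0.84 at day 5 and 8.75 ± 0.61 at day 0 (SD, n = 4 each), a difference of -1.45 ± 0.40 (SE, limma adjusted p = 0.0508). It passed with the replicate number as a block (adjusted p = 0.00681) and without the library labelled day 3 replicate 2 (adjusted p = 0.0431). TGFB1, the ligand itself, had 11.28, 7.35 and 10.99 at day 3, against 8.63, 8.65, 8.68 and 9.35 at day 0. The low value is the library labelled day 3 replicate 2, and without it the day 3 difference of TGFB1 was 2.31 ± 0.45 (adjusted p = 0.0158). With all samples it was 1.04 ± 0.76 (adjusted p = 0.799).

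Of 16 other matricellular proteins, 0 passed at day 5 and the median difference was 0.09. TNC, tenascin-C, had 9.19, 9.40, 9.86 and 11.42 at day 0, 12.74, 8.55 and 12.47 at day 3 and 11.65, 9.04, 12.42 and 12.23 at day 5. Replicate 2 was the low sample of days 3 and 5, as for THBS1. The day 5 difference of TNC was 1.36 ± 0.95 (SE, limma adjusted p = 0.545). SPP1, osteopontin, averaged 10.1 ± 1.07 at day 1 and 12.01 ± 0.67 at day 0 (SD, n = 3 and 4), with an adjusted p of 0.542.

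Of 20 proteins that share the type 1 repeat with THBS1 and THBS2, 3 rose at day 5 and 0 fell, beside 5.46% called over all probe sets, with a list median of -0.07. RSPO3, an R-spondin that amplifies WNT signals, had 6.76, 5.55, 6.59 and 6.37 at day 5, against 4.00, 4.00, 4.35 and 3.34 at day 0. The groups did not overlap, and RSPO3 rose by 2.40 ± 0.31 (SE, limma adjusted p = 0.000847). Its day 0 values are dim and no detection call was used, so the size of the rise is uncertain. SEMA5A, a guidance semaphorin, rose by 2.41 ± 0.59 (adjusted p = 0.0317) and the protease ADAMTS9 by 1.75 ± 0.44 (adjusted p = 0.0354), and both calls were lost when single samples of day 0 or day 5 were left out. SEMA5A had 10.49, 7.12 and 10.64 at day 3, against 7.48, 7.25, 7.45 and 7.35 at day 0, and without the library labelled day 3 replicate 2 its day 3 difference was 3.19 ± 0.26 (adjusted p = 0.000135).

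Of 20 matrix partners and proteases, 1 rose and 2 fell at day 5, beside 5.46% called over all probe sets, with a list median of -0.03. MATN3, the cartilage protein matrilin-3, had 10.38, 10.45, 10.41 and 10.04 at day 5, against 8.19, 7.75, 8.22 and 8.36 at day 0, and rose by 2.19 ± 0.28 (SE, limma adjusted p = 0.000802). MMP9, a gelatinase of the protease family that THBS2 helps to clear, had 5.97, 5.37, 6.21 and 6.50 at day 5, against 7.78, 7.92, 8.17 and 9.45 at day 0. Its groups did not overlap, and MMP9 fell by 2.32 ± 0.41 (adjusted p = 0.00516). JAG1, a Notch ligand, fell by 1.62 ± 0.41 (adjusted p = 0.0364) and lost its call when single samples were left out. The list had 5 calls instead of 3 with the replicate block and also without the library labelled day 3 replicate 2. SDC1, RSPO3, MATN3 and MMP9 kept their calls whichever sample was left out.

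**Figure D5:**
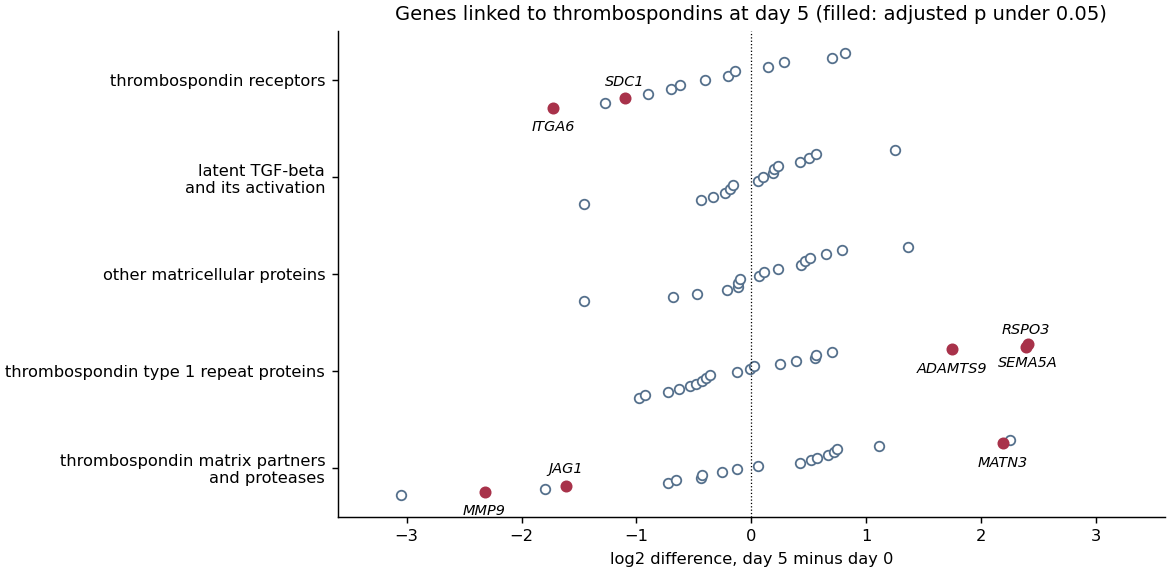
Log2 difference at day 5 minus day 0 (x axis) of the measured genes in 5 lists linked to thrombospondins (rows), where each circle is a gene and filled, named circles passed the limma test. Calls run in both directions, with SDC1, ITGA6, MMP9 and JAG1 lower and RSPO3, SEMA5A, ADAMTS9 and MATN3 higher at day 5.

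Markers of other cell types were counted in the same way, against the same 5.46% called over all probe sets at day 5. Of them, 1 of 12 fibroblast markers rose (LUM, lumican, by 4.57 ± 0.71, SE, limma adjusted p = 0.00241), 0 of 6 smooth muscle markers passed, and 1 of 9 endothelial and platelet markers fell, since KDR, a VEGF receptor, fell by 1.23 ± 0.29 (adjusted p = 0.0239). Of 8 cartilage markers, MATN3 and COL9A2 rose and CNMD fell by 4.24 ± 0.91 (adjusted p = 0.0156). Of 6 neural markers 1 rose (PAX6 by 4.34 ± 0.43, adjusted p = 0.000332), and of 7 trophoblast and extraembryonic markers 2 rose (GATA3 by 2.06 ± 0.37, adjusted p = 0.00611, and HAND1). At days 1 and 3, 0 genes of these lists passed against day 0, where 0.00541% and 0.027% of all probe sets were called. Without the library labelled day 3 replicate 2, still 0 passed at day 1. At day 3 that fit called 3.19% of all probe sets. Of these lists, VWF, a clotting protein of endothelium and platelets (2.94 ± 0.48, adjusted p = 0.00559), MATN3 and PAX6 (2.14 ± 0.47, adjusted p = 0.0301) rose in it. CNMD (-4.77 ± 0.55, adjusted p = 0.000711) and TFAP2C (-2.27 ± 0.50, adjusted p = 0.0301) fell.

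The mean log2 intensity of several of these lists was lower at day 1, where THBS2 was highest. That of the fibroblast markers ran from 6.27 to 6.75 at day 0, 5.95 to 6.12 at day 1, 6.36 to 6.64 at day 3 and 6.44 to 7.26 at day 5. That of the smooth muscle markers ran from 6.94 to 7.74 at day 0, 6.51 to 6.60 at day 1, 6.92 to 7.54 at day 3 and 6.69 to 7.69 at day 5. That of the cartilage markers ran from 7.56 to 7.73 at day 0, 6.82 to 7.33 at day 1, 6.69 to 7.67 at day 3 and 6.26 to 8.06 at day 5. In these 3 lists all samples of day 1 lay below all of day 0, while days 0 and 5 overlapped. The endothelial and platelet, neural and trophoblast lists overlapped between days 0 and 1 (6.27 to 6.39, 6.04 to 6.87 and 5.48 to 5.75 at day 1, against 6.35 to 6.66, 6.32 to 6.70 and 5.74 to 6.42 at day 0). Their part in the levels of the thrombospondins was not tested.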

How the data were processed

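RNA of 14 biological samples of H9 cells was measured on 16 Human Exon 1.0 ST arrays. The authors deposited gene-level intensity on a linear scale for 18495 probe sets, with values from -0.273 to 30307.1 and array medians from 245.1 to 246.3. Per the submitters' processing notes the build was hg18, and what tool corrected, normalized and summarised them is not stated in those notes or the labels. An array has no read depth, so the number of arrays limits the precision.

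Values were taken to log2 after adding 1 (636 were below 0), and technical arrays were averaged. Comparisons used limma 3.58.1 (lmFit, then eBayes; R 4.3.3), with all 4 groups in 1 fit. P-values are two-sided and Benjamini-Hochberg adjusted across all 18495 probe sets, with 0.05 as threshold. No filter on low values was used. The fit was tested on simulated data. Of the probe sets, 14577 had 1 symbol and only these were named.

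The members and the 13 gene lists (164 genes) were chosen with earlier results of these data known. Named genes are all members, up to 4 genes per linked list and comparison with the largest differences past the test (2 where none passed), and the genes with the highest and lowest correlations with a member. ACAN, COL1A1, ITGA3, LTBP2, PAPLN, ADAMTS5 and ADAMTS12, which the rule takes for comparisons in which no gene of their list passed, are given in the closing section. Genes with the sample order of THBS2, and single values quoted for likeness, were picked after their values were seen.

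The labels share replicate numbers across days. Deviations of same-numbered samples from their group means correlated above 0.1 in every pair only for day 3 minus day 1 (0.188, 0.509 and 0.365). Single pairs elsewhere were as high, as in day 5 minus day 3 (0.645 and 0.561 for replicates 2 and 3, -0.143 for replicate 1). Whether the numbers pair the samples is therefore not settled. Alternatives were a pseudocount of 16, the replicate block, either technical array alone, all 16 arrays with a random block, other normalizations, filters and variance models, and leaving out samples. Promoter sequences came from RefSeq. Figures used Python 3.11.15 with matplotlib 3.10.9.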

Additional observations from a re-analysis of the deposited data

How the results depend on the processing

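Of 408 values of the 4 tested genes recomputed under alternatives, 387 kept direction and side of the threshold, 15 changed sign and 6 newly passed. Of 100 such values of THBS2, which was not tested, 99 moved by less than the spread between samples. The THBS4 call at day 5 was kept throughout. With array weights, whose estimation stopped before converging and which called 798 to 6302 probe sets per comparison, 2 members passed at day 3 minus day 0, 2 at day 5 minus day 0, 1 at day 3 minus day 1 and 1 at day 5 minus day 3. Without replicate 2 of days 1, 3 and 5, 2 passed at day 5 minus day 0. The added calls were THBS3 in the first 3 comparisons and without the replicate 2 libraries, and THBS4 at day 3 minus day 0 and day 5 minus day 3. With a pseudocount of 16 the THBS2 difference at day 5 was -1.48.

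Sign changes were limited to differences that never passed. THBS1 at day 5 minus day 0 was 0.17 with array weights, 0.0173 without the replicate 2 libraries, and -1.28 to 0.0173 leaving out 1 sample. THBS1 at day 5 minus day 3 was 0.25, 0.0911, and -0.69 to 0.61. THBS3 at day 5 minus day 3 was 0.11, 0.0881, and -0.41 to 0.13. THBS3 at day 1 minus day 0 was 0.038 with the replicate block, and -0.20 to 0.0183 leaving out 1 sample. COMP at day 5 minus day 0 was 0.0362 with the first technical array alone, and -0.0851 to 0.0053 leaving out 1 sample. Beyond the samples left out, the cause was not tested.

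The replicate block changed no other member call. Over all probe sets it gave 0, 1, 1448, 1 and 21 calls at day 1, 3 and 5 minus day 0, day 3 minus day 1 and day 5 minus day 3, where the fit without it gave 1, 5, 1009, 6 and 18. Leaving out 1 sample gave 0 to 46, 0 to 590, 549 to 1614, 1 to 505 and 1 to 29, the highest of the first 4 without the library labelled day 3 replicate 2. No detection call was used here, so it is unknown which dim values lay above background.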

Other observations

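Several genes linked to thrombospondins had wide mean differences at day 1 that did not pass the limma test. ADAMTS12, a protease that degrades COMP, averaged 6.66 ± 0.27 at day 1 and 7.91 ± 0.39 at day 0 (SD, n = 3 and 4), a difference of -1.24 ± 0.26 (SE, adjusted p = 0.129). ADAMTS5, an aggrecanase, differed by -2.21 ± 0.80 (adjusted p = 0.609), ACAN, the cartilage proteoglycan aggrecan, by -2.25 ± 0.93 (adjusted p = 0.72), COL1A1, a chain of type I collagen, by -1.93 ± 0.75 (adjusted p = 0.676), the integrin subunit ITGA3 by -1.77 ± 0.71 (adjusted p = 0.698) and LTBP2, a latent TGF-beta binding protein, by -0.61 ± 0.61 (adjusted p = 1). At day 5 minus day 0, ACAN differed by -3.05 ± 0.86 (8.28-fold lower, adjusted p = 0.0594) and COL1A1 by -1.80 ± 0.69 (adjusted p = 0.184). ACAN passed with the replicate block (adjusted p = 0.0145) and without the library labelled day 3 replicate 2 (adjusted p = 0.0421), and COL1A1 with the block (adjusted p = 0.0293). PAPLN, papilin, differed by -1.10 ± 0.52 at day 3 minus day 0 (adjusted p = 0.605). At day 1 the 5 linked lists had medians between -0.52 and -0.22, beside 0.03 over all probe sets.

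A gene on each side of every thrombospondin gene on the RefSeq assembly was looked up, and none gave a call against day 0. Other genes may lie between. SMOC2, the neighbour of THBS2 at lower coordinates and itself a matricellular protein, differed by -0.55 at day 1 and 0.38 at day 3 from day 0 (limma adjusted p = 1 and 0.852). WDR27, on the other side of THBS2, differed by 0.06 and 0.43 (adjusted p = 1 and 0.88). CMYA5 and SERINC5, at lower and higher coordinates than THBS4, differed by 0.19 and -0.43 at day 5 (adjusted p = 0.83 and 0.669).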
